A study of Mus musculus with 8 samples.

Results

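The genes described here encode the cytosolic factors of translation initiation and elongation, followed in intestinal epithelial cells of the mouse colon. They were taken by name, as every gene of the deposited table whose symbol starts with Eif1 to Eif6, Eef1 or Eef2, leaving out Eif4b, Eif2s3y, the Eif2ak kinases and symbols with "-ps". This gave 66 of 55487 listed genes. The 8 RNA-seq libraries of these cells comprise 4 labelled wild type (WT) and 4 labelled PIM1+/-, all on the C57BL/6J strain. Pim1 encodes a serine/threonine kinase. The label gives a heterozygous genotype, while neither the structure of the altered allele nor age, sex or pooling is stated in the labels. No treatment is labelled. Whether each library stands for its own animal is not labelled, and p-values therefore reflect only library-to-library spread, which may be technical.

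Initiation factors bring the small ribosomal subunit and the initiator tRNA to the capped end of an mRNA and find the start codon. The elongation factors then deliver each aminoacyl-tRNA and move the ribosome along. eIF2 carries the initiator tRNA, eIF2B recharges eIF2 with GTP, eIF3 scaffolds the small subunit, and eIF4F binds the cap and unwinds the message. Colon epithelium renews itself continuously from crypt stem cells, a process with a high demand for protein synthesis.

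Values are in TPM, a level per transcript length, so levels of different genes can be set side by side. TPM keeps no read depth, and the depth behind each value is unknown. The listed genes summed to 990958 to 992187 TPM per library. Pim1 itself was at 8.79, 7.86, 5.72 and 8.83 TPM in WT and at 7.97, 7.23, 5.64 and 5.84 TPM in PIM1+/- (replicates 1 to 4 in this order), so its RNA did not separate the genotypes and the libraries are named by their labels. Summed levels of 13 colon epithelium markers, such as Epcam, Vil1 and Krt20, were 24006 to 29288 TPM in WT and 32583 to 38547 TPM in PIM1+/- libraries. Car1 carried most of this difference (7135 ± 1698 and 12859 ± 1529 TPM), and the other 12 markers summed to 19367 to 21317 and 21925 to 24559 TPM. Of the 13 markers 7 rose, among them Vil1 and Krt20, and 1 fell, and Epcam was not called (0.07 ± 0.06, adjusted p = 0.474). Other cell types gave little RNA, and some of their marker sums moved with genotype. The sums of 13 T and NK cell markers were 11.2 to 24.9 TPM in WT and 42.5 to 106 TPM in PIM1+/-, with 8 of 10 tested markers higher. Those of 11 myeloid and mast cell markers were 1.96 to 5.27 and 14.2 to 16.7 TPM, with 2 of 3 tested markers higher, and S100a9 was listed at 0 in every library. The sums of 7 fibroblast markers were 0.69 to 1.53 and 3.64 to 11.5 TPM. Fn1, the 1 tested marker, was higher (0.515 ± 0.264 and 5.19 ± 2.87 TPM) and carried most of this difference. The other fibroblast markers were too low to test, with Lum listed at 0 throughout, so a shift of fibroblast RNA as such was not shown. For 5 red blood cell transcripts they were 5.88 to 14.9 and 20.9 to 28.1 TPM, with 2 of 3 tested transcripts higher. B cell, smooth muscle, endothelial and enteric neuron markers had sums of at most 14.5 TPM in any library, and their ranges overlapped between genotypes. Mitochondrially encoded transcripts summed to 159650 to 182246 TPM in WT and 124178 to 135706 TPM in PIM1+/- libraries. In such bulk samples, fewer cells of a type and less RNA per cell cannot be told apart. The part that these differences play in the results below was not tested.

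The summed TPM of the translation factor genes, as deposited, was nearly the same in both genotypes, and changes of single genes were small with 2 exceptions. All 66 genes together measured 11683 ± 263 TPM in WT and 11422 ± 334 TPM in PIM1+/- libraries (SD, n = 4 each). Much of this sum came from Eef1a1 (4769 and 4637 TPM) and Eef2 (1091 and 1009 TPM). The sum also depends on scaling. Mitochondrially encoded transcripts averaged 167723 TPM in WT and 132413 TPM in PIM1+/- libraries. Leaving them out raises the other values more in WT, and so lowers the sum in PIM1+/- relative to WT. Eef1a1 and Eef2 had log2 fold changes of -0.04 and -0.11 as deposited, and -0.10 and -0.18 after such rescaling, not called either way. The sum itself was not rescaled, so near equality was shown on the deposited scale only. The median log2 fold change of the tested members was 0.02 as deposited and -0.04 after rescaling without mitochondrially encoded transcripts. For all tested genes it was -0.01 and -0.07. Eif3f, a subunit gene of eIF3, fell, with a log2 fold change of -0.73 and a ratio of means of 0.600, and Eif4e3, an atypical cap-binding protein gene, rose 2.93-fold. The other 11 genes that passed the test moved by 0.22 to 0.49 on the log2(TPM + 1) scale, in either direction. These 11 were Eif2b2, Eif4a1, Eif4e, Eif5a, Eif5b and Eif6, which rose, and Eif1, Eif4a2, Eif4g2, Eef1b2 and Eef2k, which fell.

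Of the 66 genes, 59 reached 1 TPM in at least 4 libraries and were tested. Limma on log2(TPM + 1), adjusted over all 12760 tested genes, called 13 of the 59 (22%), against 17.5% of all tested genes. Higher in PIM1+/- were 7, where 8.93% of all tested genes were called higher, and lower were 6, where 8.54% of all were called lower. The members' share thus lay near that of all genes. Their median log2 fold change was 0.02, and that of all tested genes was -0.01. Members differed less in size of change: their median absolute log2 fold change was 0.13 against 0.16 for all tested genes, and 3.39% of them against 11.7% of all had a log2 fold change of at least 0.5 in either direction. Between genotypes, values were free of overlap for 20 members (33.9%), against 23.5% of all tested genes. All 13 called members were among these 20, and the other 7 missed the threshold. The split of calls over all genes depends on scaling: 51.1% of calls were higher as deposited, 37.9% after upper quartile scaling and 35.3% after rescaling without mitochondrially encoded transcripts. Under those scalings the members' calls were 5 higher and 9 lower, and 4 higher and 8 lower.

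**Figure D1:**
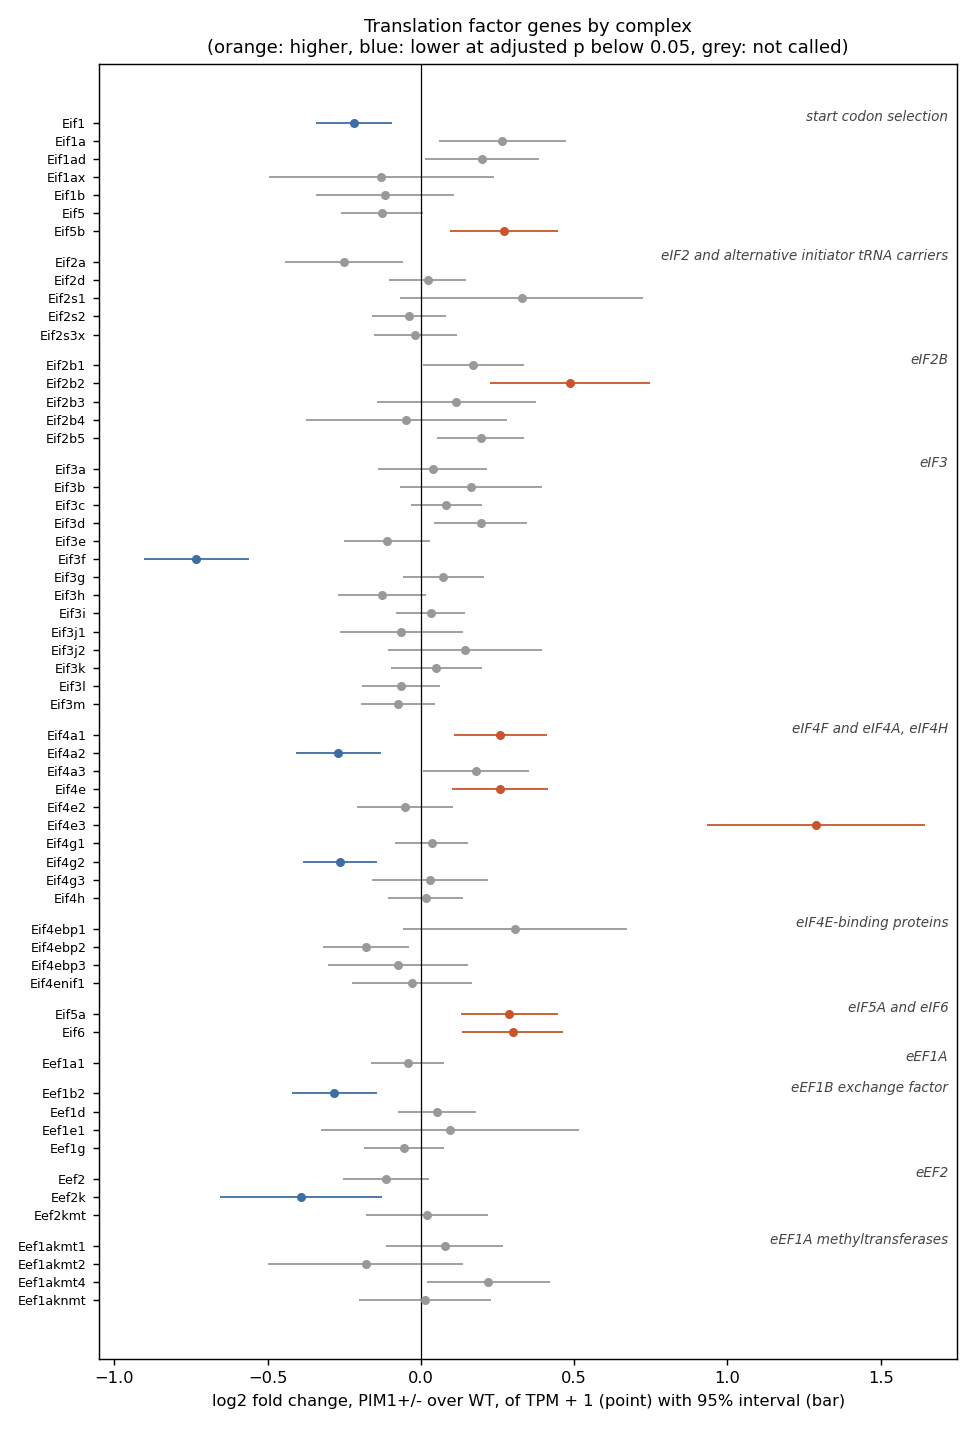
Log2 fold change of TPM + 1, PIM1+/- over WT (horizontal axis), of the 59 tested translation factor genes, grouped by complex, with 95% intervals from limma as bars. Orange genes were called higher and blue genes lower; Eif4e3 at 1.29 and Eif3f at -0.73 lie farthest from 0.

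The promoters of the called genes were read from RefSeq (GRCm38.p6), which gave windows for 49 of the 66 members. Each window ran from 250 bases before to 50 bases after a start. The E-box CACGTG, a palindrome bound by MYC with its partner MAX, occurred in 16 of 63 member windows (25.4%). It was found in 9.93% of the windows of all tested genes and in 7.15% of all 32851 windows. Counted by gene rather than by window, 14 of 49 members had an E-box. Among called genes, 10 had a window and 5 of these an E-box: Eif4a1, Eif4e and Eif5a, which rose, and Eif3f and Eef2k, which fell. The shares of all genes given above are per window and cannot be set against these counts. So the motif stood in front of genes called in both directions. The stretches around it are shown for the 4 genes whose stretch lies outside annotated exons, 5′ to 3′ on the gene's strand, with the E-box in capitals. They are chr7:108934305-108934394 (plus strand) for Eif3f, chr7:120842758-120842830 (plus) for Eef2k, chr11:69672565-69672654 (minus) for Eif4a1 and chr11:69921413-69921502 (minus) for Eif5a.
Eif3f: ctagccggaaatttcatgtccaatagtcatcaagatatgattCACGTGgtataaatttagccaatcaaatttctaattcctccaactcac
Eef2k: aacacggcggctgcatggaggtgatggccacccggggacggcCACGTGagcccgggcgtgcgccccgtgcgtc
Eif4a1: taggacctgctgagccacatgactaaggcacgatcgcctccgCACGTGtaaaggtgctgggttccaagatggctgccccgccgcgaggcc
Eif5a: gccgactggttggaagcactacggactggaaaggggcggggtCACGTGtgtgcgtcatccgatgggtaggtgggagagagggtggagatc
The E-box began 68 bases before the start in Eif3f, 31 in Eef2k, 189 in Eif4a1 and 74 in Eif5a. Interferon-type motifs were also searched on both strands. The core of the interferon-stimulated response element was found in 3 of 63 member windows (4.76%), those of Eif2s1, Eif2s3x and Eif3a, and in 3.04% of the windows of tested genes. The palindromic activated site TTCNNNGAA was found in 5 member windows (7.94%, against 6.80%), among called genes in Eef2k and Eif4e. Such matches describe letters only. No window was listed for Eif4e3.

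eIF3 was examined first because it holds the largest number of members and the largest fall. Its 14 genes summed to 1504 ± 66.6 TPM in WT and 1466 ± 37.3 TPM in PIM1+/- libraries. Eif3f (ENSMUSG00000031029, chromosome 7, 108934417 to 108942951, GRCm38) encodes a subunit with an MPN domain. It measured 99.2, 100.1, 105.9 and 108 TPM in WT and 54.8, 60.1, 62.8 and 70.3 TPM in PIM1+/- libraries, again by replicate. Every PIM1+/- library lay far below every WT library. The log2 fold change was -0.73 ± 0.08 (SE, 95% interval -0.90 to -0.56, adjusted p = 0.000407), and the call held in all 15 alternatives, with values from -0.79 to -0.68. No other annotated transcript matched Eif3f at 95% identity over 200 bases or more.

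The other 13 eIF3 genes did not pass, with log2 fold changes from -0.13 to 0.19 and adjusted p from 0.0758 to 0.779. Eif3h, the other MPN subunit, was at 254 ± 19.0 TPM in WT and 233 ± 11.97 TPM in PIM1+/- (-0.13 ± 0.06, adjusted p = 0.202). Eif3k, at 230 ± 16.02 and 238 ± 15.1 TPM, had a lower mean than Eif3h in WT and a higher one in PIM1+/-, with overlapping ranges. Next in level came Eif3i (158 ± 6.64 and 161 ± 6.41 TPM). The scaffold gene Eif3a measured 79.6 ± 3.81 and 82.0 ± 8.70 TPM. Eif3d, whose product can bind the cap, measured 69.5, 70.1, 71.0 and 64.0 TPM in WT and 88.4, 75.0, 74.6 and 77.3 TPM in PIM1+/- replicates 1 to 4. These values did not overlap, yet the gene missed the threshold (0.19 ± 0.07, adjusted p = 0.0758). Eif3j1 and Eif3j2, near-identical copies between which the division of reads is uncertain, were lowest at 11.5 ± 0.85 and 8.87 ± 1.29 TPM in WT. In WT libraries Eif3f was 1.32 ± 0.09 times the geometric mean of the other eIF3 genes of the same library, and in PIM1+/- libraries 0.778 ± 0.086 times. This ratio does not depend on library scaling. It differed between genotypes by -0.77 ± 0.10 on the log2 scale without overlap (exact permutation p = 0.0286, two-sided, the smallest that 4 against 4 libraries allow, and 0.0381 adjusted over 8 such ratios, which were chosen after values were seen). Because Eif3f alone already separated the genotypes, this p is no independent support. The same holds for the ratios of Eif4e3, Eif4g2 and Eef1b2 below. The 8 include Eif4a1 to Eif4a2 and Pdcd4 to Eif4a1, which had to separate, and the adjusted value is lower than it would be without them.

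**Figure D2:**
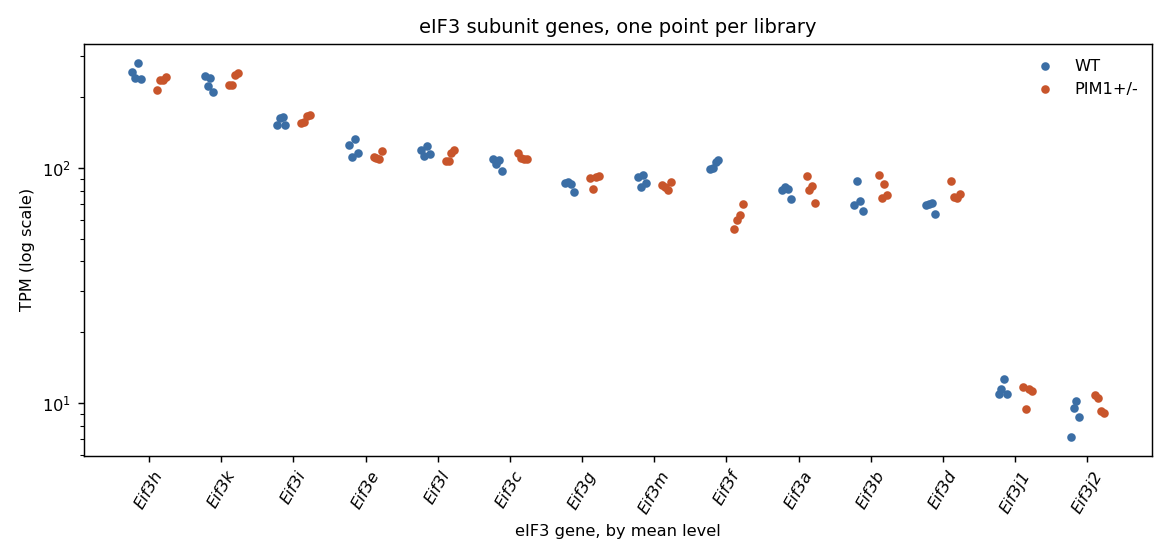
Level of the 14 eIF3 genes in TPM (vertical axis, log scale), 1 point per library, ordered by mean level. WT libraries are blue and PIM1+/- libraries orange; Eif3f is at 99.2 to 108 TPM in WT and 54.8 to 70.3 TPM in PIM1+/-, while points of most other genes intermingle.

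The cap-binding complex held the largest rise. Eif4e3 (ENSMUSG00000093661, chromosome 6, 99625135 to 99666771) measured 3.46, 3.31, 1.87 and 2.61 TPM in WT and 9.18, 7.93, 6.74 and 9.08 TPM in PIM1+/- replicates 1 to 4. Every PIM1+/- library lay far above every WT library, and the fold change was 1.29 ± 0.16 on the log2 scale (95% interval 0.93 to 1.64, adjusted p = 0.00106). The call held in all 15 alternatives, from 1.16 to 1.54. Eif4e, the canonical cap-binding protein gene, was far more abundant, at 32.2, 36.4, 32.6 and 33.4 TPM in WT and 43.6, 37.0, 38.8 and 42.5 TPM in PIM1+/- replicates 1 to 4. It rose by 0.26 ± 0.07 (adjusted p = 0.0340), with the highest WT library just under the lowest PIM1+/- one. Eif4e2, which binds caps without engaging eIF4G, stayed at 87.8 ± 8.55 and 84.5 ± 2.36 TPM (-0.05 ± 0.07, adjusted p = 0.659). Eif4e3 was thus the scarcest of the 3 in both genotypes. Its ratio to Eif4e went from 0.0835 ± 0.0212 to 0.203 ± 0.020, a difference of 1.31 ± 0.21 on the log2 scale without overlap (exact permutation p = 0.0286, adjusted 0.0381). The ratio uses TPM without the added 1, so this 1.31 and the 1.29 of the gene alone are on unlike scales. The germline paralogue Eif4e1b reached no more than 0.04 TPM.

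The helicase genes of this complex moved in opposite directions. eIF4A unwinds structure ahead of the scanning ribosome. Eif4a1 measured 371, 381, 373 and 340.2 TPM in WT and 493, 408, 439 and 418 TPM in PIM1+/- replicates 1 to 4, and rose by 0.26 ± 0.07 (adjusted p = 0.0296). Eif4a2, whose protein is closely similar, measured 384, 314, 364 and 356 TPM in WT and 289, 289.9, 296 and 297 TPM in PIM1+/- replicates 1 to 4. It fell by 0.27 on the log2 scale (SE 0.06, adjusted p = 0.0174). In WT the pair stood level, with an Eif4a1 to Eif4a2 ratio of 1.04 ± 0.12, and in PIM1+/- libraries Eif4a1 was ahead at 1.5 ± 0.14. The ratio differed by 0.53 ± 0.10 on the log2 scale, given without a test because each gene alone already separated the genotypes in opposite directions. The pseudogene Eif4a-ps4, with 99.9% identity to Eif4a1, took 0, 3.86, 0 and 0 TPM in WT and 14.8, 0, 0 and 13.7 TPM in PIM1+/- libraries 1 to 4. The division of reads between the 2 genes is uncertain. Eif4a3, the helicase of the exon junction complex, was at 70.1 ± 6.07 and 79.5 ± 5.72 TPM (0.18 ± 0.08, adjusted p = 0.14).

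Scaffold genes followed no common direction. Eif4g2 encodes a shortened eIF4G that lacks the eIF4E-binding part. It measured 259, 256, 282 and 248 TPM in WT and 221, 209.6, 212 and 227 TPM in PIM1+/- replicates 1 to 4, without overlap, and fell by 0.26 on the log2 scale (SE 0.05, adjusted p = 0.0105, called in all 15 alternatives). The full-length scaffolds Eif4g1 (148 ± 2.81 and 151 ± 9.18 TPM, 0.03 ± 0.05, adjusted p = 0.691) and Eif4g3 (20.9 ± 0.52 and 21.5 ± 2.62 TPM, 0.03 ± 0.08, adjusted p = 0.84) did not pass. The Eif4g2 to Eif4g1 ratio went from 1.77 ± 0.09 to 1.44 ± 0.11 (log2 difference -0.30 ± 0.07, exact permutation p = 0.0286, adjusted 0.0381). Eif4h, which stimulates eIF4A, was at 147 ± 6.47 and 148 ± 7.78 TPM. Of the 10 tested genes of this group 3 rose, 2 fell and 5 were not called. Eif4a1 lost its call without WT replicate 1, 3 or 4, or else PIM1+/- replicate 3 (adjusted p 0.0570 to 0.0758), Eif4a2 without WT replicate 1 (0.05005), and Eif4e without WT replicate 1, 3 or 4, or else PIM1+/- replicate 1, 3 or 4 (0.0551 to 0.0939). Eif4a1 and Eif4e also lost it after rescaling without mitochondrially encoded transcripts, without the limma trend and without the filter on low values (adjusted p 0.0541 to 0.0711 and 0.0516 to 0.0694), and Eif4e after upper quartile scaling. Neither Eif4a1 nor Eif4e was called with the replicate block.

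Limma called 0 of 4 genes of proteins that hold eIF4E back, 1 of which had an unadjusted p under 0.05, as had 4132 of all 12760 tested genes. Eif4ebp3 was the most abundant of these in colon epithelium, at 217 ± 12.4 TPM in WT and 207 ± 30.0 TPM in PIM1+/- libraries (-0.07 ± 0.10, adjusted p = 0.655). Eif4ebp2 measured 44.1, 40.4, 41.7 and 42.7 TPM in WT and 35.2, 35.2, 38.4 and 40.2 TPM in PIM1+/- replicates 1 to 4, lower in every library but short of the threshold (-0.18 ± 0.06, adjusted p = 0.0799). It passed after upper quartile scaling and after rescaling without mitochondrially encoded transcripts, at -0.22 and -0.24. Eif4ebp1, the classical target of mTORC1, was scarce, at 8.39 ± 1.18 and 10.8 ± 2.63 TPM, with overlapping libraries (0.31 ± 0.16, adjusted p = 0.228). Levels in WT therefore ran from Eif4ebp3 through Eif4ebp2 to Eif4ebp1 with no overlap between neighbours. Eif4enif1, which shuttles eIF4E, was at 22.4 ± 2.82 and 21.9 ± 0.62 TPM.

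eIF2B, the exchange factor of eIF2 and the point at which stress signalling slows initiation, had 1 called gene of 5. Eif2b2, the gene of a regulatory subunit, measured 41.9, 44.3, 41.8 and 47.6 TPM in WT and 72.6, 62.7, 48.1 and 66.6 TPM in PIM1+/- replicates 1 to 4. It rose by 0.49 ± 0.12 (adjusted p = 0.0203), although PIM1+/- replicate 3 lay only just above the highest WT library. Without WT replicate 1 or 3 it lost its call (adjusted p 0.0538 to 0.0571), as it did without the filter (0.0586). The catalytic subunit gene Eif2b5 was at 25.9 ± 1.53 and 29.8 ± 1.17 TPM (0.19 ± 0.06, adjusted p = 0.0612), without overlap. Eif2b1 (45.1 ± 2.41 and 51.0 ± 4.45 TPM), Eif2b3 (8.46 ± 1.20 and 9.23 ± 1.03 TPM) and Eif2b4 (32.0 ± 7.74 and 30.5 ± 3.24 TPM) were not called. Relative to the geometric mean of the other eIF2B genes, Eif2b2 stood at 1.88 ± 0.30 in WT and 2.45 ± 0.37 in PIM1+/- libraries, with overlap (exact permutation p = 0.0571, adjusted 0.0653). A change of Eif2b2 beyond that of its complex was therefore not shown.

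Limma called 0 of the 5 genes around eIF2 itself, 1 of which had an unadjusted p under 0.05, as had 4132 of all 12760 tested genes. Eif2s1, whose protein is the phosphorylated subunit in the integrated stress response, was at 20.8, 23.8, 21.1 and 20.8 TPM in WT and 42.3, 25.0, 23.2 and 22.8 TPM in PIM1+/- replicates 1 to 4. A single library, PIM1+/- replicate 1, carried most of the difference (0.33 ± 0.18, adjusted p = 0.231, and 0.13, adjusted p = 0.303, without it). Eif2s2, the most abundant, was at 141 ± 2.80 and 137 ± 8.79 TPM, and the X-linked Eif2s3x at 46.0 ± 2.54 and 45.4 ± 2.10 TPM. Of the alternative carriers of initiator tRNA, Eif2a had 55.7, 49.2, 52.9 and 44.5 TPM in WT and 43.2, 40.6, 38.5 and 47.0 TPM in PIM1+/- replicates 1 to 4 (-0.25 ± 0.09, adjusted p = 0.0752). Its libraries overlapped, and it passed under upper quartile scaling (-0.30) and after rescaling without mitochondrially encoded transcripts (-0.31), and without WT replicate 4 (-0.31, adjusted p = 0.0473) or PIM1+/- replicate 4 (-0.30, adjusted p = 0.0494). Eif2d stayed at 21.2 ± 0.50 and 21.5 ± 0.76 TPM.

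Among factors of start codon selection and subunit joining, 1 gene rose and 1 fell. Eif1, which keeps the scanning ribosome from starting at wrong codons, was the most abundant at 332, 315, 360 and 322 TPM in WT and 304, 279, 281 and 276 TPM in PIM1+/- replicates 1 to 4. It fell by 0.22 on the log2 scale (SE 0.06, adjusted p = 0.0275). There are 13 other genes with transcripts that match Eif1 at 95% identity or more over at least 200 bases. These summed to 27.5 TPM in WT and 34.1 TPM in PIM1+/- libraries on average. Most of it was listed under Emd, a protein-coding gene of its own, at 23.0 to 30.4 TPM in WT and 26.9 to 38.1 TPM in PIM1+/- libraries. The other matches stayed at or below 3.19 TPM in every library. The ratio of Eif1 to its paralogue Eif1b was 16.5 ± 1.17 and 15.5 ± 2.40 (log2 difference -0.10 ± 0.12, exact permutation p = 0.514), so a shift between the paralogues was not shown. Eif5b, the GTPase that joins the ribosomal subunits, measured 20.3, 23.6, 20.6 and 23.0 TPM in WT and 25.2, 29.7, 25.5 and 26.0 TPM in PIM1+/- replicates 1 to 4, and rose by 0.27 ± 0.08 (adjusted p = 0.0431).

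Eif1a (30.5 ± 1.37 and 37.0 ± 5.08 TPM, 0.27 ± 0.09, adjusted p = 0.0771) was higher in all PIM1+/- libraries without passing, while its X-linked paralogue Eif1ax (27.4 ± 3.53 and 25.4 ± 6.13 TPM) overlapped. Eif5, the GTPase activator of eIF2, was at 102 ± 5.68 and 93.1 ± 5.19 TPM (-0.13 ± 0.06, adjusted p = 0.18), and passed as lower with upper quartile scaling (-0.17). Eif1ad, placed here by its name, was at 18.6 ± 1.89 and 21.5 ± 1.02 TPM (0.20 ± 0.08, adjusted p = 0.127). Of the called genes, Eif1 lost its call without WT replicate 1 or 3, or else PIM1+/- replicate 2, 3 or 4 (adjusted p 0.0604 to 0.0709), and Eif5b without any one library except WT replicate 2 (0.0573 to 0.114) and under both other scalings. Both also lost it without the trend and without the filter, Eif1 at adjusted p 0.0562 to 0.0608. Neither was called with the replicate block (Eif1 at adjusted p = 0.0638).

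Eif5a and Eif6 rose together. eIF5A, which carries the modified lysine hypusine, helps ribosomes past difficult peptide bonds, and eIF6 keeps the large subunit from joining too early and acts in its assembly. Eif5a, the third most abundant member, measured 404, 433, 432 and 366 TPM in WT and 541, 474, 468 and 514 TPM in PIM1+/- replicates 1 to 4 (0.29 ± 0.07, adjusted p = 0.0227). Eif6 measured 159.7, 182, 164 and 148 TPM in WT and 212, 206, 203 and 182.3 TPM in PIM1+/- replicates 1 to 4 (0.30 ± 0.07, adjusted p = 0.0227). For both genes the groups did not overlap, though for Eif6 the highest WT and lowest PIM1+/- libraries nearly met. Eif5a2, the paralogue, was below the expression minimum at no more than 0.12 TPM. Eif5a lost its call without WT replicate 1 or 4, or else PIM1+/- replicate 1 or 4 (adjusted p 0.0504 to 0.0600), and Eif6 without WT replicate 1, 3 or 4, or else PIM1+/- replicate 1, 2 or 3 (0.0511 to 0.0625). Without the filter both lost it (0.0597 and 0.0559), and with the replicate block Eif5a did too (0.0724).

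**Figure D3:**
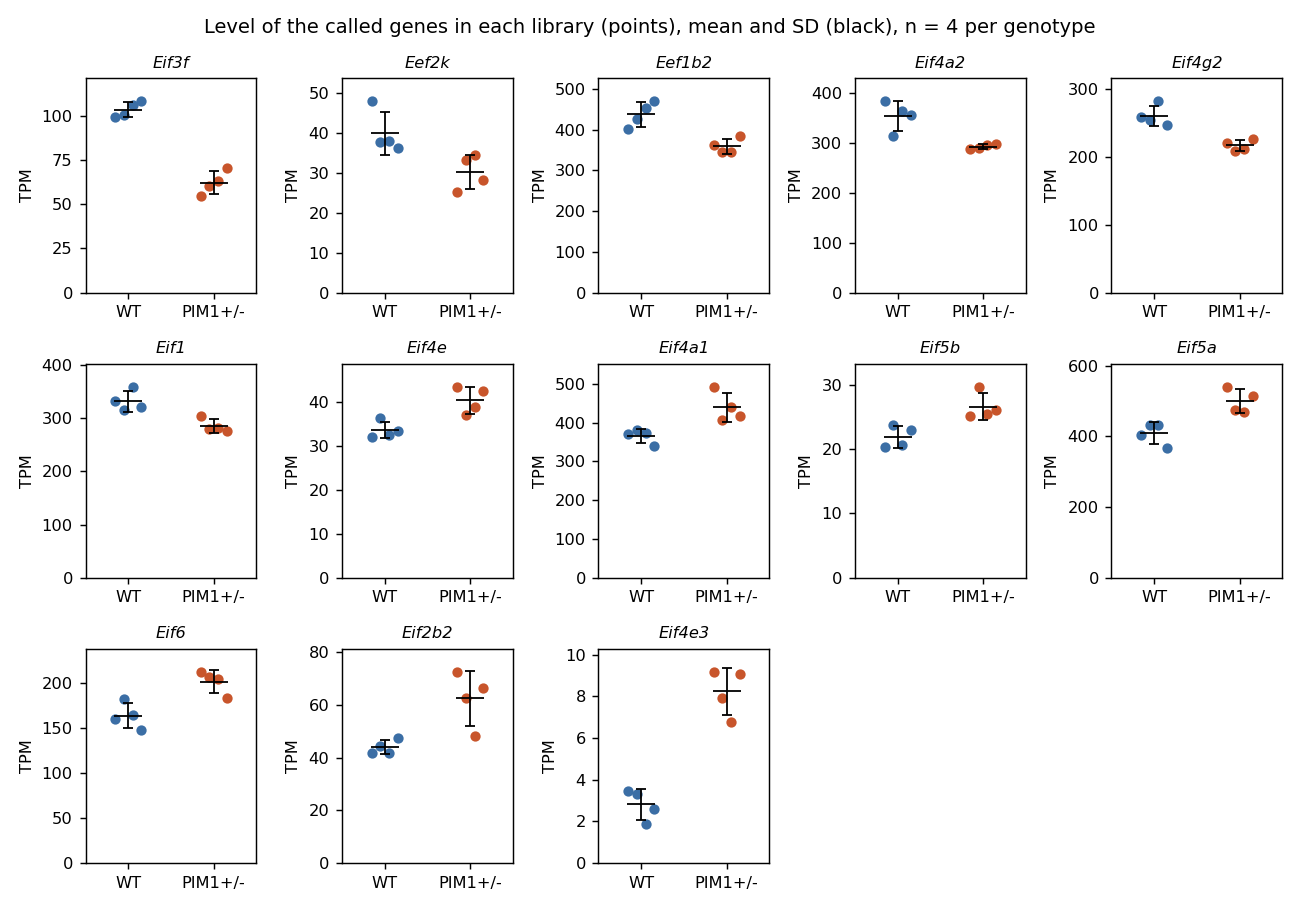
Level in TPM (vertical axes, from 0) of the 13 called translation factor genes in each library, WT blue and PIM1+/- orange, with mean and SD in black (n = 4 each). In every panel the 2 groups of points are apart, by a wide gap in Eif3f and Eif4e3 and by a narrow one in Eif4e and Eif6.

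The elongation factor genes Eef1a1 and Eef2 were the most abundant members and were not called, while Eef2k and Eef1b2 fell. Eef1a1, which delivers aminoacyl-tRNA to the ribosome, was first at 4713, 4767, 4880 and 4716 TPM in WT and 4419, 4433, 4742 and 4952 TPM in PIM1+/- replicates 1 to 4 (-0.04 ± 0.05, 95% interval -0.16 to 0.08, adjusted p = 0.627). Its paralogue Eef1a2, typical of muscle and neurons, stayed at or below 0.10 TPM. Eef2, the translocase, was second at 1091 ± 55.3 and 1009 ± 68.8 TPM (-0.11 ± 0.06, adjusted p = 0.237). Eef2k, the kinase that inactivates eEF2, measured 47.8, 37.6, 38.0 and 36.0 TPM in WT and 25.2, 33.1, 34.3 and 28.2 TPM in PIM1+/- replicates 1 to 4. It fell by 0.39 on the log2 scale (SE 0.12), barely past the threshold (adjusted p = 0.049), and lost its call without any one library except PIM1+/- replicate 3 (adjusted p 0.0597 to 0.111), and also without the trend or without the filter (0.0662 to 0.1135). With the replicate block Eef2k was not called either (adjusted p = 0.112). Eef2kmt, which methylates eEF2, was at 15.8 ± 1.27 and 16 ± 1.57 TPM.

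In the exchange factor of eEF1A, Eef1b2 was the called gene. It measured 401, 426, 452 and 469 TPM in WT and 362, 344, 345 and 384 TPM in PIM1+/- replicates 1 to 4, and fell by 0.28 on the log2 scale (SE 0.06, adjusted p = 0.0143, called in all 15 alternatives). Its partners Eef1g (298 ± 13.5 and 288 ± 18.5 TPM, adjusted p = 0.565) and Eef1d (124 ± 6.39 and 129 ± 6.78 TPM, adjusted p = 0.561) did not pass. The Eef1b2 to Eef1g ratio went from 1.47 ± 0.12 to 1.25 ± 0.03 without overlap (log2 difference -0.23 ± 0.06, exact permutation p = 0.0286, adjusted 0.0381). Eef1e1, placed here by its name, encodes a part of the multi-synthetase complex and was at 8.76 ± 2.06 and 9.38 ± 2.03 TPM. Limma called 0 of 4 tested eEF1A methyltransferase genes, 1 of which had an unadjusted p under 0.05, as had 4132 of all 12760 tested genes. Eef1akmt4 came nearest (8.36 ± 0.77 and 9.89 ± 0.73 TPM, 0.22 ± 0.09, adjusted p = 0.122), and Eef1akmt1 was the most abundant (24.5 ± 2.10 and 25.9 ± 2.25 TPM). The 7 members that were not tested, Eef1a2, Eef1akmt3, Eif2c5, Eif4a3l1, Eif4a3l2, Eif4e1b and Eif5a2, stayed at or below 0.70 TPM in every library. Eif2c5 is taken by its name only and was listed at 0 throughout, as was Eif4a3l2.

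**Figure D4:**
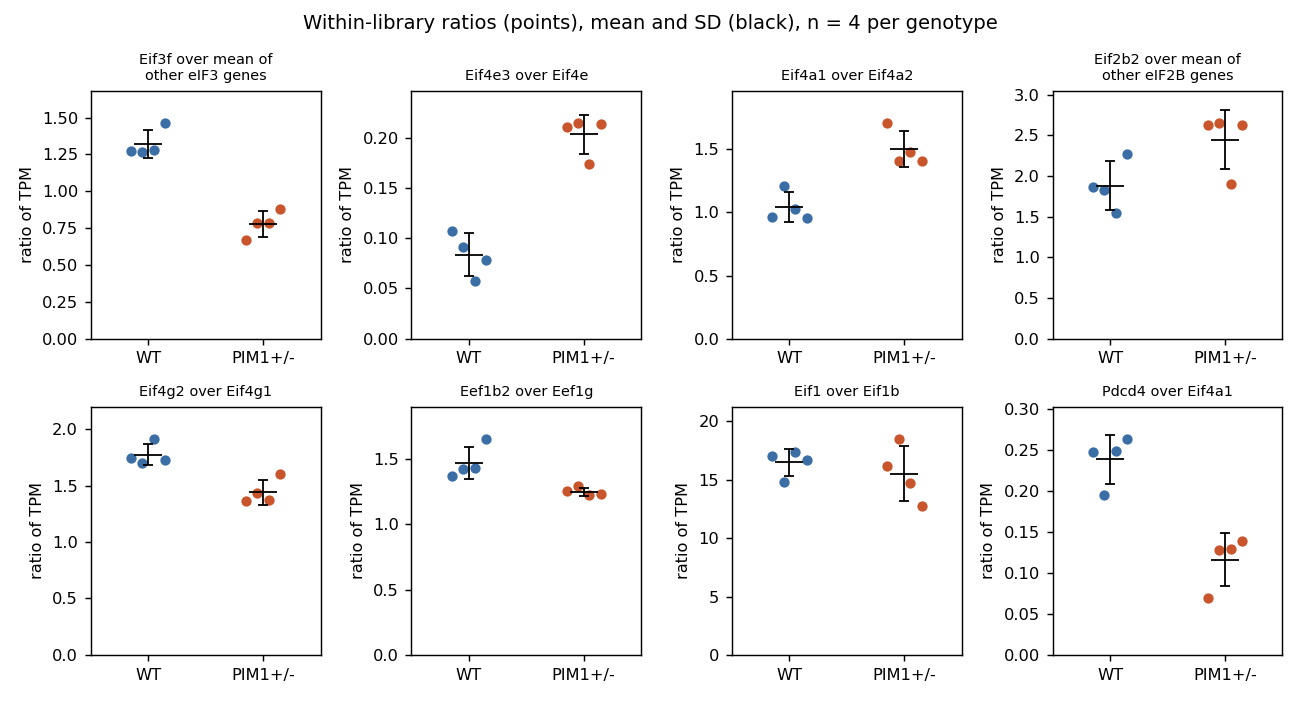
Ratios of TPM values of the same library (vertical axes, from 0) for 8 pairs of genes or gene sets, WT blue and PIM1+/- orange, with mean and SD in black (n = 4 each); "mean" in the panel titles is the geometric mean. The groups are apart in 6 panels, for Eif4a1 over Eif4a2 and Pdcd4 over Eif4a1 necessarily so, and overlap for Eif2b2 over the other eIF2B genes and for Eif1 over Eif1b.

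Other genes of the pathway were examined in 7 lists. Of their 71 tested genes 9 rose (12.7%, against 8.93% of all tested genes) and 4 fell (5.63%, against 8.54%), a share called of 18.3% against 17.5% of all. Targets of the integrated stress response, which cells switch on through phosphorylated eIF2 and the factor ATF4, gave 6 of the 9. Of 14 tested, limma called 6 higher (42.9%, against 8.93% of all tested genes) and 0 lower. An unadjusted p under 0.05 was reached by 10 of them, including Cebpb, which was lower, and by 4132 of all 12760 tested genes. The median log2 fold change of the 14 was 0.32, beside -0.01 for all tested genes. Like the other lists, this one was chosen with earlier results of these data known, so its share is not independent support. Asns, asparagine synthetase, measured 13.0, 16.6, 13.1 and 12.04 TPM in WT and 33.5, 26.1, 19.0 and 23.4 TPM in PIM1+/- replicates 1 to 4 (0.83 ± 0.16, adjusted p = 0.00874). Phgdh, the entry enzyme of serine synthesis, went from 7.96 ± 1.93 to 15.7 ± 3.45 TPM (0.90 ± 0.19, adjusted p = 0.0112), and Mthfd2, of mitochondrial folate metabolism, from 4.23 ± 1.2 to 9.57 ± 3.38 TPM (0.99 ± 0.23, adjusted p = 0.0177). Chac1, a glutathione-degrading enzyme, also rose but unevenly, with 0.17, 0.14, 0.14 and 0.38 TPM in WT and 12.5, 13.8, 1.1 and 1.14 TPM in PIM1+/- replicates 1 to 4 (2.19 ± 0.65, adjusted p = 0.0465). PIM1+/- replicates 1 and 2 stood far above replicates 3 and 4, and all 4 above WT. Of the other called targets, Asns, Mthfd2 and Slc7a5 also had replicates 1 and 2 above replicates 3 and 4. Slc7a5 was at 11.2, 7.92, 5.28 and 4.38 TPM in PIM1+/- replicates 1 to 4. Phgdh and Psat1 did not have this order. Atf4 RNA itself was at 178, 154, 191 and 168 TPM in WT and 248, 213, 180.2 and 180.4 TPM in PIM1+/- replicates 1 to 4, with overlap (0.24 ± 0.11, adjusted p = 0.165). Cebpb of the same list was at 2.53, 8.57, 3.82 and 3.20 TPM in WT and at 1.90 ± 0.16 TPM, with a highest library of 2.11 TPM, in PIM1+/-, lower without overlap but not called (-0.82 ± 0.27, adjusted p = 0.0659). Nupr1 (-0.08 ± 0.21, adjusted p = 0.842) and Sesn2 (0.08 ± 0.10, adjusted p = 0.624) were not called either. Phosphorylation of eIF2 was not measured. Psat1 and Slc7a5 were the other 2 called targets. Among the targets, Chac1 and Slc7a5 lost their call without any one WT library or PIM1+/- replicate 1 or 2 (adjusted p 0.0833 to 0.106 and 0.0656 to 0.101), Psat1 without WT replicate 1 or 4 (0.0589 and 0.0594) and Mthfd2 without WT replicate 4 (0.05225). Without the filter these 4 lost it too, and without the trend Chac1 and Slc7a5 (adjusted p 0.0512 to 0.1255 over these settings). With the replicate block Chac1 and Psat1 were not called.

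Of 16 tested genes that signal to initiation, 1 rose and 3 fell (25% called, against 17.5% of all tested genes), with a median log2 fold change of -0.06. Pdcd4, an inhibitor that binds eIF4A, measured 92.3, 74.5, 92.8 and 89.6 TPM in WT and 34.1, 52.5, 56.8 and 58.0 TPM in PIM1+/- replicates 1 to 4, and fell by 0.81 on the log2 scale (SE 0.16, adjusted p = 0.00957, called in all 15 alternatives). Every PIM1+/- library was below every WT library. Per library, Pdcd4 stood at 0.239 ± 0.030 of the Eif4a1 level in WT and 0.116 ± 0.032 in PIM1+/- (log2 difference -1.08 ± 0.25), again without a test for the same reason. Deptor, an mTOR inhibitor, went from 31.2 ± 2.27 to 24.2 ± 1.77 TPM (-0.35 ± 0.08, adjusted p = 0.0129), and Tsc2, which restrains mTORC1, from 35.4 ± 3.0 to 28.1 ± 1.81 TPM (-0.32 ± 0.08, adjusted p = 0.0199). Ppp1r15b, which helps to remove phosphate from eIF2, rose from 42.4 ± 2.25 to 54.9 ± 7.09 TPM (0.36 ± 0.09). Tsc2 lost its call without PIM1+/- replicate 2 (adjusted p = 0.0507), and Ppp1r15b without WT replicate 1 or 3 (0.0519 and 0.0597) and without the filter (0.0559).

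**Figure D5:**
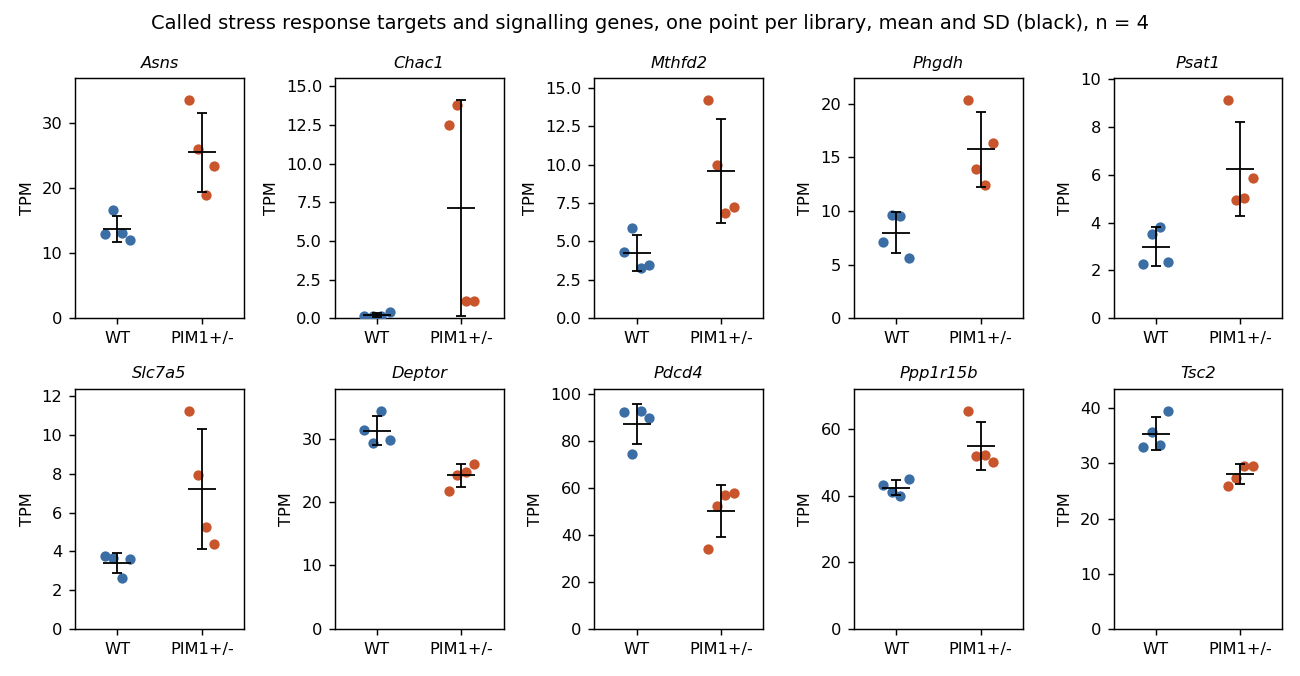
Level in TPM (vertical axes, from 0) of the 6 called stress response targets (Asns to Slc7a5) and the 4 called signalling genes (Deptor to Tsc2) in each library, WT blue and PIM1+/- orange, with mean and SD in black (n = 4 each). Pdcd4 is at 74.5 to 92.8 TPM in WT and 34.1 to 58.0 TPM in PIM1+/-. Chac1 is split most widely within the PIM1+/- libraries, and replicates 1 and 2 are also the higher ones for Asns, Mthfd2 and Slc7a5.

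In the remaining lists few genes passed. Of 8 termination and recycling genes 1 fell, the scarce release factor gene Gspt2 (from 2.28 ± 0.38 to 0.990 ± 0.506 TPM, -0.74 ± 0.18, adjusted p = 0.0243), while its abundant paralogue Gspt1 was at 48.7 ± 3.22 and 54.3 ± 6.92 TPM (adjusted p = 0.312). Of 9 mitochondrial translation factor genes 1 rose, Tufm, the mitochondrial counterpart of eEF1A (from 121 ± 4.77 to 140.3 ± 7.81 TPM, 0.21 ± 0.05, adjusted p = 0.0274). Of 10 genes of the multi-synthetase complex 1 rose, the arginyl-tRNA synthetase gene Rars (from 43.6 ± 3.40 to 57.9 ± 5.62 TPM, 0.40 ± 0.08, adjusted p = 0.0114). Limma called 0 of 5 poly(A)-binding protein genes and 0 of 9 genes of enzymes that modify these factors, with 1 gene of each list at an unadjusted p under 0.05. That p was reached by 4132 of all 12760 tested genes. Gspt2 lost its call without WT replicate 2 or 3, or else PIM1+/- replicate 1, 2 or 4 (adjusted p 0.05015 to 0.0630), and Tufm without WT replicate 1, 3 or 4, or else PIM1+/- replicate 1 or 2 (0.0508 to 0.0703). Tufm also lost it after rescaling without mitochondrially encoded transcripts and without the trend (0.0584 to 0.0585), and Gspt2 without the filter (0.0685). With the replicate block Tufm was not called (adjusted p = 0.0623).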

How the data were processed

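RNA of 4 WT and 4 PIM1+/- libraries was sequenced on an Illumina NovaSeq instrument. The deposited table holds TPM values per gene, made by the authors with RSEM per the series' design text; HISAT2, StringTie, edgeR and the build GRCm38.p6 are named in the submitters' processing notes, with no versions listed. TPM keeps no depth, so no counting interval is given. Genotypes were taken from the labels. From the TPM values, log2(TPM + 1) was fitted with limma 3.58.1 in R 4.3.3 (trend, two-sided, no covariate) for the 12760 genes at 1 TPM or more in at least 4 libraries, with Benjamini-Hochberg adjustment over all of them and a threshold of 0.05. The fit was tested on simulated data. Fold changes on this scale understate changes of scarce genes. Within-library ratios used TPM without the added 1 and were compared on the log2 scale by exact permutation tests, two-sided, over 70 splits. Genes were named by a rule: every called member, the member with the smallest p and the most abundant one of each complex, fixed paralogue sets, and up to 3 called genes with the smallest p per pathway list. Any other gene given with values was chosen after its values were seen, as were the 8 ratios. Examples are the further subunits of eIF3, eIF2 and eIF2B, Eif5, Chac1, Slc7a5, Atf4, Cebpb, Nupr1, Sesn2, Gspt1 and Ppp1r15b. The Car1, Vil1, Krt20, Epcam and Fn1 markers were chosen in the same way. Genome coordinates come from GENCODE M21 and promoters from RefSeq, both on GRCm38. Similar transcripts were searched with BLAST 2.17.0. Alternatives were the trend, scaling, the filter, the pseudocount, a replicate block and leaving out each library. The members and lists were chosen with earlier results of these data known.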

Additional observations from a re-analysis of the deposited data

Results flagged for a closer look

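In 6 of 118 groups of 4 libraries (5.08%), 1 library of a translation factor gene lay far from the other 3, where chance gives about 1 in 20. Eef1d was at 133.86 TPM in WT replicate 3, with the next library at 122.17 TPM. Eef2k was at 47.8 TPM in WT replicate 1, with the next at 38.02 TPM, and Eef2kmt at 18.34 TPM in PIM1+/- replicate 4, with the next at 15.41 TPM. Eif2s1 stood apart in both genotypes, at 23.75 TPM in WT replicate 2 (next 21.14 TPM) and at 42.26 TPM in PIM1+/- replicate 1 (next 25.01 TPM). Eif3c was at 115.69 TPM in PIM1+/- replicate 1, with the next at 109.93 TPM. Among PIM1+/- libraries, replicate 1 also lay farthest from WT for the called genes Eif2b2, Eif3f, Eif4a1, Eif4a2, Eif4e, Eif4e3, Eif5a, Eif6 and Eef2k. For the called genes Eif1, Eif4g2, Eif5b and Eef1b2 another library did.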

How the results depend on the processing

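Of 884 values of single translation factor genes under the alternatives, 811 kept their side of the threshold. The call was lost in 66 and gained in 7, and 0 reversed direction in a gene called under either setting. Sign changes of genes called under neither setting count among the 811. Eif2b4, for example, was at -0.05 as reported and 0.10 without WT replicate 3. Over all tested genes, 666 were lower without the filter on low values and 689 with the replicate block, against 1090. Translation factor genes called higher, 7 as reported, numbered 4 without the trend, 4 after rescaling without mitochondrially encoded transcripts, 1 without the filter and 3 with the replicate block; those called lower, 6 as reported, numbered 4, 8, 4 and 4, and 9 after upper quartile scaling. Pathway genes called higher fell from 9 to 4 without the filter. Leaving out 1 library gave 746 to 1004 higher and 616 to 1054 lower over all genes, 1 to 7 higher and 3 to 6 lower translation factor genes, and 4 to 9 higher and 2 to 5 lower pathway genes. Higher translation factor genes numbered 1 without WT replicate 1, 2 without WT replicate 3 or 4, 3 without PIM1+/- replicate 1 or 3 and 4 without PIM1+/- replicate 4, and lower ones 3 without WT replicate 1. Over all genes, 746 were higher without WT replicate 4, and 616, 690 and 689 lower without WT replicate 1, 3 and 4. The cause was not tested. Same-numbered libraries did not deviate together (correlations -0.136 to 0.032, 0 of 4 over 0.1), so no sign of pairing by number was seen. The labels state no pairing, and 4 correlations cannot exclude it. The replicate block gave 760 higher and 689 lower genes. With a pseudocount of 0.1 Chac1 gave 3.77 and Gspt2 -1.22 on the log2 scale. Depth is unknown.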
